A study of Mus musculus with 8 samples.

Results

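The genes described here encode claudins, connexins and the proteins that build and anchor tight junctions, measured by RNA-seq in lower molars of mouse embryos. Members were chosen by gene symbol among protein-coding genes: claudins (Cldn with a number), connexins (Gja, Gjb, Gjc or Gjd with a number), the zonula occludens genes (Tjp with a number), and Ocln, Cgn, F11r and Marveld2. This rule took 59 of the 43629 genes in the count tables, namely 33 claudins, 19 connexins and 7 other tight junction genes, and it used no measured value. The mutants were 4 embryos of the genotype K14:cre; Jagged1 fl/fl (K14J26, K14J28, K14J29 and K14J30), in which Cre driven by the keratin 14 promoter deletes Jagged1, a ligand of Notch receptors, in the epithelium. The controls were 4 Jagged1 fl/fl littermates (J3, J5, J6 and J7), which carry the floxed alleles without Cre. The paper describes its controls for RNA-seq as wild-type (WT) littermates. All embryos were collected at E18.5, and the left and right lower first molars of each were pooled into 1 library. Whole molars were used, so the mesenchyme, where the keratin 14 promoter is not active, contributes RNA with an intact Jagged1. Each library is a separate embryo, and neither the sex nor the litter of the embryos was used as a factor.

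Claudins are membrane proteins whose extracellular loops meet those of neighbouring cells and form the strands of the tight junction. Some claudins seal the space between cells, and others form pores for ions, so that the set a cell makes fixes what its junctions let through. Occludin (Ocln) and tricellulin (Marveld2) sit in the same strands, F11r (JAM-A) is an adhesion protein at the junction, and the ZO proteins encoded by the Tjp genes and cingulin (Cgn) link the strands to actin. Connexins assemble into channels that join the cytoplasm of neighbouring cells at gap junctions. In the tooth, the ameloblasts that secrete enamel are tall polarized cells tied together by junctional complexes, and connexin 43 (Gja1) is the connexin best known there, since human mutations in GJA1 cause oculodentodigital dysplasia with enamel defects.

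The libraries held 17327224 to 29792467 counts on genes, and 3 counts corresponded to 0.0998 to 0.166 CPM, counts scaled to a common library size. Groups were compared over 17129 genes by the quasi-likelihood test of edgeR, p-values were adjusted over all of them (Benjamini-Hochberg), and every fold change is mutant over control on the log2 scale with its standard error (SE). The targeted gene, Jag1, fell by 1.19 (SE 0.14, adjusted p = 0.00517), from 95.2 to 104 CPM in controls to 34.0 to 57.1 CPM in mutants. The mutants differed among themselves in enamel genes: a score over Amelx, Ambn, Enam, Mmp20 and Klk4 (mean log2 CPM) was highest in K14J26 (11.78), followed by K14J29 (9.79), K14J30 (8.17) and K14J28 (6.93), against 4.72 to 6.88 in controls. Every mutant thus lay above every control in this score, and Amelx, Ambn, Enam and Mmp20 were themselves called higher in mutants. Fits with the score as a covariate therefore can hardly tell it apart from genotype. Markers of differentiating or keratinizing surface epithelium summed to 1070 CPM in K14J28 and to 93.1 to 288 CPM in the other 7 embryos. Skeletal muscle markers summed to 419 CPM in J6 and 208 CPM in J7 and to 6.73 to 21.2 CPM in the other 6 embryos, and with a score over them as a covariate no member was called by edgeR (6 higher and 3 lower at an unadjusted p under 0.05) and 0.228% of all genes were called in each direction. Xist, the transcript of the inactive X chromosome, was abundant in K14J28 (1930 CPM) and K14J29 (1470 CPM) and at or below 1.09 CPM in the other embryos. In bulk samples, fewer cells of a type and less RNA per cell cannot be told apart.

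Of the 59 members, 32 had at least 10 counts in at least 2 embryos of a group and were tested: 15 of the 33 claudins, 10 of the 19 connexins and all 7 other tight junction genes. Genes higher in mutant molars at an adjusted p under 0.05 included Gja1, Tjp1 and Cldn20, and Gjc1 was lower. The share called was 4 of 32 higher, against 9.52% of all genes tested, and 1 of 32 lower, against 6.61%, shares near the background in both directions. By a looser rule, an unadjusted p of at most 0.05 together with a log2 fold change of at least 0.5 in size, 5 members were higher (Cldn20, Gja3, Gjb2 and Cldn17 among them; 8.33% of all genes) and 4 lower (Cldn7, Cldn4 and Cldn34c1 among them; 5.85% of all genes). The 4 control and 4 mutant values did not overlap for 4 higher members (including Gja1, Tjp1 and Gja3; 12.6% of all genes) and 4 lower members (including Cldn34c1, Gjc1 and Marveld2; 11.6% of all genes). The fold change was above 0 for 12 members and below 0 for 20, with a median of -0.16 beside 0.01 over all genes. By family, the median was -0.17 for claudins, 0.04 for connexins and -0.16 for the other tight junction genes.

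**Figure D1:**
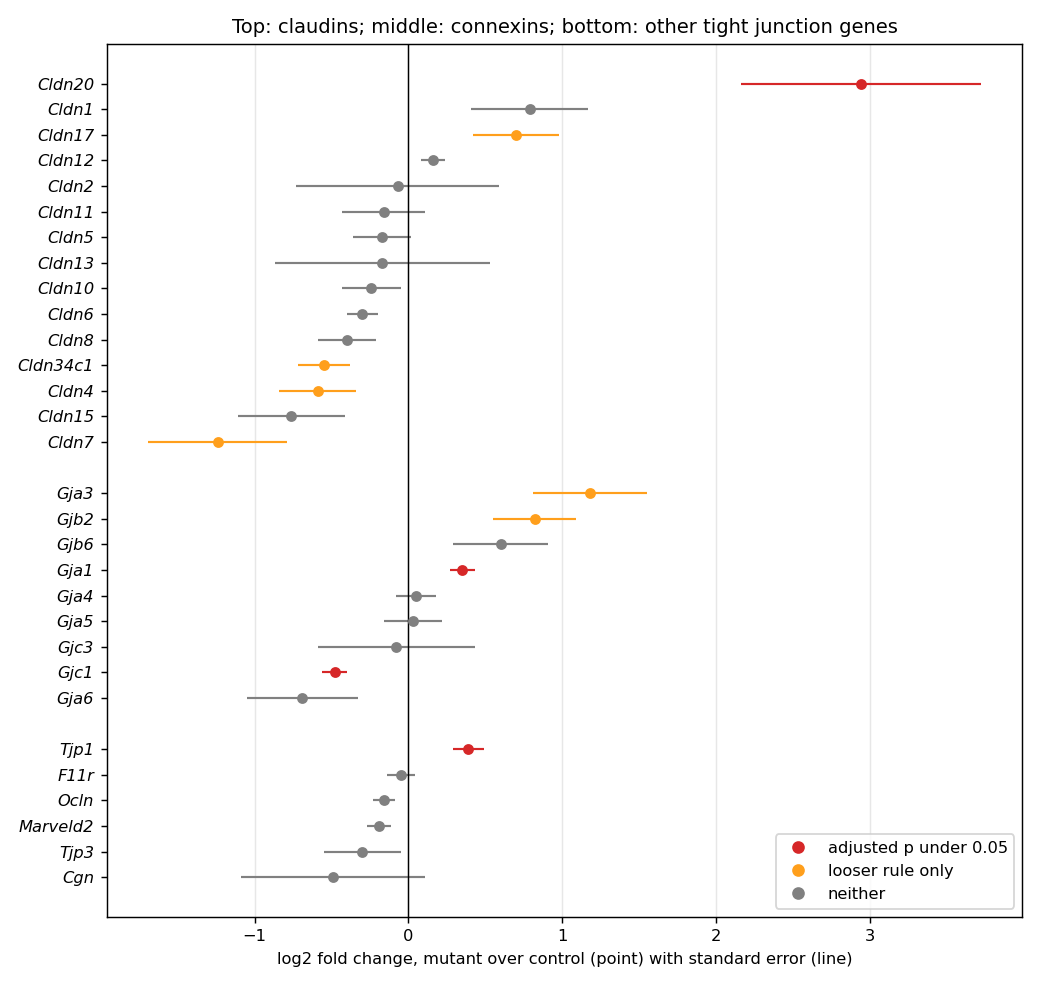
Log2 fold change of 30 of the 32 tested genes, mutant over control (points), with the standard error (lines), sorted within claudins, connexins and other tight junction genes. Red points have an adjusted p under 0.05 and orange points pass the looser rule alone. Cldn20 has the largest value (2.94, SE 0.78), and Cldn7 (-1.24) the lowest of those drawn.

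Promoter sequence is printed for Gja1, Tjp1 and Cldn20, from the RefSeq promoter table for GRCm38.p6, and for Cldn4, an abundant claudin with lower values in 3 of the 4 mutants. Each run is the 250 bases before the transcription start, written 5′ to 3′ in the direction of the gene. Capitals mark matches to the motifs searched on both strands: the RBPJ core TGGGAA (RBPJ is the DNA-binding partner of the Notch intracellular domain), the E-box CACCTG bound by Snail and Zeb repressors, the grainyhead site AACNGGTT, the GC box GGGCGG, the TATA box TATAAA and the AP-1 site TGANTCA. No 2 of these motifs overlap in the windows shown.
Gja1, chr10:56377050-56377299, plus strand: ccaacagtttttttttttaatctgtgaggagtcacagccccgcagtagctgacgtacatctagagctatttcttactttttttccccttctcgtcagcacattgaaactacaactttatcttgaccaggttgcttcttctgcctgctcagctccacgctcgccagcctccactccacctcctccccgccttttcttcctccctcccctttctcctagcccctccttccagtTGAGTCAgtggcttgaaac
Tjp1, chr7:65371245-65371494, minus strand: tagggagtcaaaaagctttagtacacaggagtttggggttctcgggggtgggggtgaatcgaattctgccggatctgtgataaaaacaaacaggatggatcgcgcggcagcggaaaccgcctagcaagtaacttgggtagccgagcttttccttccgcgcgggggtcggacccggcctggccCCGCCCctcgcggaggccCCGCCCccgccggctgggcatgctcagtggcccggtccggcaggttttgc
Cldn20, chr17:3532304-3532553, plus strand: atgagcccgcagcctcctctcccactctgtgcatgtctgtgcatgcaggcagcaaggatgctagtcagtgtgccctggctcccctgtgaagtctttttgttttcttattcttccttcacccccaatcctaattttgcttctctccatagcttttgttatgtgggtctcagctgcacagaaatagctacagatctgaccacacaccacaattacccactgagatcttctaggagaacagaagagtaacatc
Cldn4, chr5:134946935-134947184, minus strand: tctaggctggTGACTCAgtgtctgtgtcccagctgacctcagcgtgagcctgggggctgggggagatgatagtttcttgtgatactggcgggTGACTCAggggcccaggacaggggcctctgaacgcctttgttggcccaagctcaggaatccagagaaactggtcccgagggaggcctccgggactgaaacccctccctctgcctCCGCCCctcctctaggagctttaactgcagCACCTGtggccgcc

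The Gja1 window holds an AP-1 site that begins 19 bases before the start, and the Tjp1 window holds GC boxes that begin 68 and 50 bases before it. That RefSeq start of Tjp1 lies inside the longer gene model of the annotation. The Cldn4 window holds AP-1 sites at 240 and 158 bases, a GC box at 44 bases and a CACCTG E-box at 14 bases. None of these motifs is in the Cldn20 window. The RBPJ core is in none of these windows, and it is in 11 of the 58 windows of the 43 members in the table, against 21.6% of all 32851 windows. CACCTG was in 13 of the 58 (17.2% of all), the GC box in 25 (32.7%), TATAAA in 8 (12.4%), the AP-1 site in 7 (6.75%) and the grainyhead site in 3 (1.79%), those of Cgn, Cldn5 and Gjb6. A match describes the letters in the window and does not show that a factor binds there.

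Levels were compared between genes per kilobase of exon (CPM per kb). Gja1 was far above all other members, with 211 CPM per kb in controls and 270 in mutants on average. F11r followed with 43.9 in controls, then Cldn1 with 24.0, Tjp1 with 19.7, Cldn6 with 18.9 and Gjc1 with 15.6 CPM per kb. Below these came Cldn12, then Cldn4 (8.18), Cldn5 (6.96), Cldn20 (5.32), Ocln (5.18), Marveld2 (5.16) and Gja4 (4.49 CPM per kb). Neighbours in this lower run lie within the spread of the controls in several cases, such as Ocln beside Marveld2. The annotated model of Cldn20 is a single exon of 660 bases, so its level per kb is uncertain. The connexin messages of the molar were thus mostly Gja1, which made up 87.9 to 89.9% of the connexin sum per kb in controls and 89.9 to 92.8% in mutants. The connexin sum without Gja1 was 24.6 to 27.3 CPM per kb in controls and 20.7 to 27.8 in mutants. Among claudins, Cldn1 held 28.4 to 29.7% of the sum per kb in controls, and Cldn20 held 4.95 to 7.79%. In mutants the Cldn20 share was 45.5% (K14J26), 30.3% (K14J29) and 18.3% (K14J30), while K14J28 had 7.57%.

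**Figure D2:**
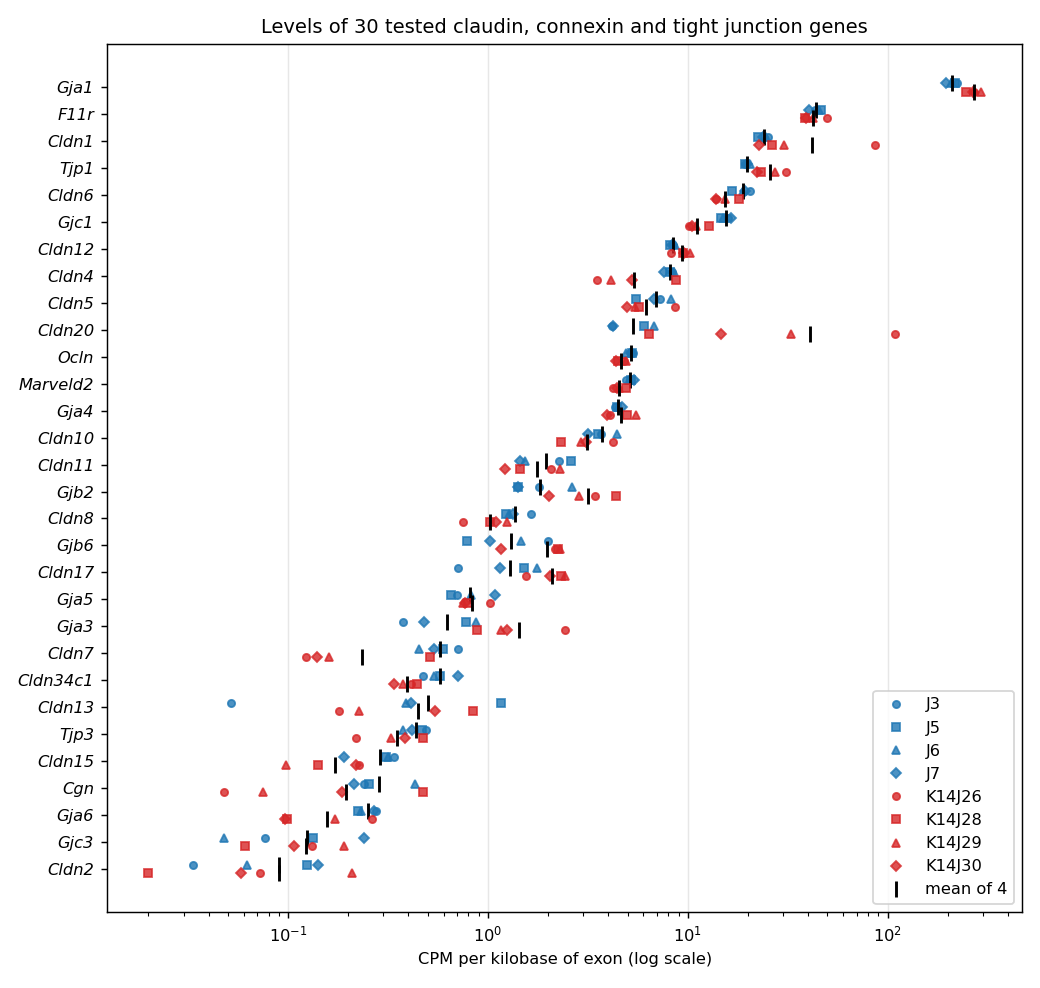
Level of 30 of the 32 tested genes in CPM per kilobase of exon (logarithmic axis), 1 point per embryo, controls in blue and mutants in red, with the mean of 4 as a black tick. Gja1 stands alone at the top with control and mutant means of 211 and 270, while Cldn20 and Cldn1 spread widely among mutants.

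Among connexins, Gja1 (connexin 43, ENSMUSG00000050953, chromosome 10 of GRCm38 from 56377330 to 56402513) was the abundant one and was higher in mutants. Its level was 2280, 2240, 2140 and 2020 CPM in J3, J5, J6 and J7, and 2780, 2520, 3010 and 2750 CPM in K14J26, K14J28, K14J29 and K14J30. Every mutant lay above every control. The fold change on the log2 scale was 0.35 (SE 0.08, adjusted p = 0.0199). It lay between 0.31 and 0.39 when each embryo was left out in turn, and the adjusted p passed 0.05 without J3, J5, J6, J7 or K14J29, with 0.0669 as the highest. With library sizes alone as the scaling it was 0.25 (adjusted p = 0.108), and as covariates the enamel score gave 0.26 (adjusted p = 0.168), the skeletal muscle score 0.30 (adjusted p = 0.126) and Xist 0.35 (adjusted p = 0.051). Odontoblast markers summed to 4860 to 8860 CPM in controls and 8120 to 24300 CPM in mutants, with 4 of 6 called higher and none at 0. Ameloblast markers summed to 1660 to 4470 CPM in controls and 5080 to 116000 CPM in mutants, with 6 of the 7 tested called higher. The part of either cell type in the Gja1 value was not tested.

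Gjc1 (connexin 45, ENSMUSG00000034520, chromosome 11 from 102799579 to 102819700), known from the heart conduction system and smooth muscle, was the other connexin called and moved in the opposite direction. Controls had 80.2, 73.5, 75.3 and 82.6 CPM and mutants 50.7, 64.2, 54.9 and 52.8 CPM. The groups did not overlap, and K14J28 lay closest to the controls. Its log2 fold change was -0.48 (SE 0.08, adjusted p = 0.0119), and the call held with each of the 8 embryos left out, between -0.57 and -0.44. It was lost with the enamel score as a covariate (-0.28, adjusted p = 0.135) and with the skeletal muscle score (-0.47, adjusted p = 0.0774). Markers of pericytes and smooth muscle summed to 539 to 632 CPM in controls and 456 to 637 CPM in mutants, with 5 of 8 fold changes below 0 and none at 0 CPM. The pericyte marker Kcnj8 was called higher (0.48, adjusted p = 0.0171), while the smooth muscle markers Myh11 (-0.55, adjusted p = 0.0615), Tagln (-0.55, adjusted p = 0.128) and Acta2 (-0.50, adjusted p = 0.181) had negative values. Their part in the Gjc1 value was not tested.

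Gja3 (connexin 46), Gjb2 (connexin 26) and Gjb6 (connexin 30) lie side by side on chromosome 14, with gaps of 40499 and 18600 bases between them, and all had positive fold changes. Gjb2 and Gjb6 are expressed together in the inner ear and in stratified epithelium. Gja3, best known from the lens, had 1.11, 2.31, 2.59 and 1.42 CPM in controls and 7.21, 2.63, 3.47 and 3.69 CPM in mutants. The groups did not overlap, though K14J28 lay just above J6, and the log2 fold change of 1.18 (SE 0.37) had an adjusted p of 0.0561. Gjb2 had 4.32, 3.42, 6.33 and 3.41 CPM in controls and 8.22, 10.6, 6.90 and 4.89 CPM in mutants, a log2 fold change of 0.82 (SE 0.27, adjusted p = 0.0688). The highest Gjb2 value was in K14J28, the embryo with the high markers of differentiating or keratinizing surface epithelium. Without that embryo the Gjb2 fold change was 0.61 (adjusted p = 0.115). Gjb6 had 5.32, 2.10, 3.89 and 2.74 CPM in controls and 5.82, 5.99, 6.13 and 3.10 CPM in mutants (0.60, SE 0.31, adjusted p = 0.204). The ranges of Gjb2 and Gjb6 overlapped between groups. Gja3 passed without K14J28 (1.35, adjusted p = 0.0263), and Gjb2 passed without J6 (1.04, adjusted p = 0.0476) or K14J30 (0.98, adjusted p = 0.0428). DESeq2 called both Gja3 (adjusted p = 0.0115) and Gjb2 (adjusted p = 0.0238), and with Xist as a covariate edgeR called Gja3 (1.63, adjusted p = 0.0302).

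Gja5, Gja4, Gja6 and Gjc3 did not pass the test. Gja5 (connexin 40), of arterial endothelium and heart, ranged from 3.75 to 6.18 CPM in controls and from 4.30 to 5.86 CPM in mutants (0.03, adjusted p = 0.929). It overlaps Gpr89 in the annotation. Gja4 (connexin 37), an endothelial connexin, had 7.31, 7.46, 7.52 and 7.94 CPM in controls and 6.87, 8.39, 9.29 and 6.64 CPM in mutants (0.05, SE 0.13, adjusted p = 0.833). The X-linked Gja6, which lies within another gene on the same strand, ranged from 0.454 to 0.554 CPM and from 0.194 to 0.529 CPM (-0.69, SE 0.36, adjusted p = 0.205). Gjc3 (connexin 29), a connexin of myelinating glia, ranged from 0.208 to 1.05 CPM and from 0.266 to 0.832 CPM (-0.08, adjusted p = 0.921). Endothelial markers summed to 377 to 417 CPM in controls and 305 to 375 CPM in mutants, with 1 of 10 called lower (Tie1, -0.35, adjusted p = 0.0291) and none at 0. Schwann cell markers summed to 253 to 284 CPM and 262 to 364 CPM, with 1 of 9 called in each direction and none at 0. The part of these cell types in the connexin values was not tested.

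**Figure D3:**
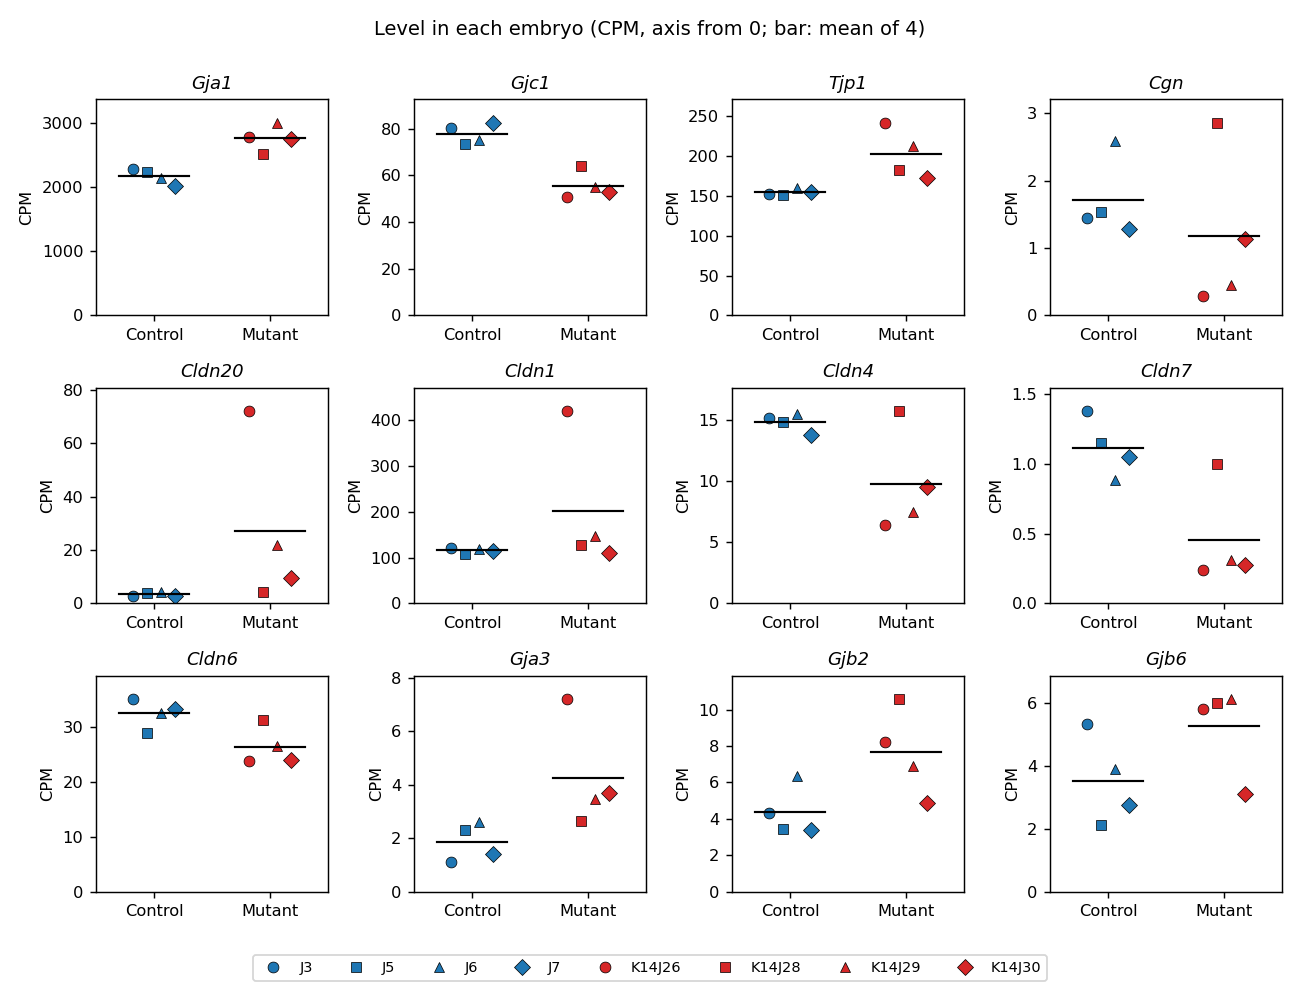
CPM in each embryo for 12 claudin, connexin and tight junction genes, each panel with its own axis from 0, 1 symbol per embryo and the mean of 4 as a bar. Gja1, Tjp1 and Gja3 separate upwards and Gjc1 downwards. The mutant K14J28 (square) lies within the control range in Cldn7 and above it in Cldn4 and Cgn.

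Tjp1 (ZO-1, ENSMUSG00000030516, chromosome 7 from 65296165 to 65527781), which anchors the junction to actin, was higher in mutants. It had 152, 151, 160 and 155 CPM in controls and 242, 182, 213 and 173 CPM in mutants, without overlap. The controls lay close together (SD 4.09 CPM, n = 4) and the mutants spread more (SD 31.3 CPM, n = 4), with K14J26 and K14J29 highest. The log2 fold change was 0.39 (SE 0.10, adjusted p = 0.0329). It lost the call without J3, J5, J6, J7 or K14J29, where the highest adjusted p was 0.0929, and with the enamel score as a covariate it was 0.10 (adjusted p = 0.619). It was also lost with the epithelial score (0.40, adjusted p = 0.0585), the skeletal muscle score (0.38, adjusted p = 0.155) and Xist (0.45, adjusted p = 0.0531). Tjp3 (ZO-3) was low, with 1.40 to 1.83 CPM in controls and 0.817 to 1.76 CPM in mutants (-0.30, SE 0.25, adjusted p = 0.408), and its exons share bases with Apba3 on the other strand. Strand was not marked by the library kit, so reads of such partners cannot be told apart.

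The strand proteins other than claudins showed small negative fold changes. Ocln had 22.5, 22.3, 20.8 and 21.9 CPM in controls and 20.2, 18.8, 20.9 and 18.4 CPM in mutants (-0.16, SE 0.07, adjusted p = 0.149). Marveld2, which lies 43238 bases from Ocln on chromosome 13, had 16.7, 17.6, 17.2 and 18.2 CPM in controls and 14.3, 16.7, 15.3 and 15.0 CPM in mutants. All Marveld2 values of mutants lay below those of controls, yet the difference of -0.19 (SE 0.08) had an adjusted p of 0.126. F11r, the second member by level per kb, had 116, 124, 120 and 108 CPM in controls and 132, 103, 113 and 104 CPM in mutants (-0.05, SE 0.09, adjusted p = 0.733). Cgn had 1.44, 1.53, 2.59 and 1.28 CPM in controls and 0.288, 2.86, 0.451 and 1.13 CPM in mutants (-0.49, SE 0.60, adjusted p = 0.591). The Cgn values ran in both directions, with K14J28 above all controls and the other 3 mutants below them, and without K14J28 the fold change was -1.43 (adjusted p = 0.0518). Among these 7 genes none was called lower by edgeR, with 1 at an unadjusted p under 0.05 and 0 by DESeq2.

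Among claudins, Cldn20 (ENSMUSG00000091530, chromosome 17 from 3532554 to 3533213) had the largest fold change of any member. Controls had 2.77, 4.00, 4.46 and 2.80 CPM and mutants 72.2, 4.23, 21.8 and 9.66 CPM. The value in K14J28 lay within the control range and the other 3 mutants lay above it, in the order of their enamel scores. The log2 fold change was 2.94 (SE 0.78, adjusted p = 0.0358), and 1.76 (adjusted p = 0.0289) without K14J26. It was not called without J3, J5, J6, J7 or K14J29, with adjusted p-values up to 0.102, and with the enamel score as a covariate it was -0.44 (adjusted p = 0.439). The call was also lost with the epithelial score (2.97, adjusted p = 0.0534) and the skeletal muscle score (2.49, adjusted p = 0.239). Cldn20 lies inside Tfb1m on the opposite strand with no shared exon bases, and Tfb1m stayed between 5.07 and 8.32 CPM in all embryos (0.26, adjusted p = 0.242).

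Cldn1, a sealing claudin of stratified epithelia and the most abundant claudin per kb in controls, had 122, 108, 119 and 115 CPM in controls and 421, 128, 148 and 110 CPM in mutants. A single mutant, K14J26, stood apart, and K14J30 lay within the control range. The log2 fold change of 0.79 (SE 0.38, adjusted p = 0.172) became 0.15 without K14J26. Cldn17, which forms anion pores, had 0.831, 1.77, 2.08 and 1.35 CPM in controls and 1.83, 2.73, 2.84 and 2.41 CPM in mutants (0.70, SE 0.28, adjusted p = 0.107). Its neighbour Cldn8, a sealing claudin of the kidney collecting duct that lies 53849 bases away on chromosome 16, had 3.88, 2.89, 3.01 and 3.14 CPM in controls and 1.78, 2.43, 2.91 and 2.60 CPM in mutants (-0.40, SE 0.19, adjusted p = 0.163). The ranges of both overlapped between groups.

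Cldn7, Cldn4 and Cldn6 were among the 11 of 15 tested claudins with negative fold changes. Cldn7 had 1.38, 1.15, 0.882 and 1.05 CPM in controls and 0.240, 0.998, 0.312 and 0.272 CPM in mutants (-1.24, SE 0.45, adjusted p = 0.0839). Cldn4, which lies between Cldn13 and Cldn3 on chromosome 5, had 15.2, 14.9, 15.5 and 13.8 CPM in controls and 6.39, 15.8, 7.52 and 9.58 CPM in mutants (-0.59, SE 0.25, adjusted p = 0.123). In both genes K14J28 lay within or above the control range, and the other 3 mutants lay below every control. Without K14J28 both were called, with -1.99 for Cldn7 (adjusted p = 0.00557) and -0.92 for Cldn4 (adjusted p = 0.0061). Cldn6, a claudin of embryonic epithelia, had 35.1, 28.8, 32.6 and 33.3 CPM in controls and 23.8, 31.2, 26.5 and 23.9 CPM in mutants. K14J28 was again the mutant nearest to the controls, and the Cldn6 fold change of -0.30 (SE 0.10, adjusted p = 0.0777) was -0.39 without it (adjusted p = 0.0162). Among claudins edgeR called none lower, with 4 at an unadjusted p under 0.05, while DESeq2, upper-quartile scaling and the 50-count filter each called 1 (Cldn34c1). With Xist as a covariate and all 8 embryos kept, edgeR called Cldn6 (-0.46, adjusted p = 0.0346) and Cldn7 (-2.21, adjusted p = 0.0346) lower. Without K14J28, edgeR called 4 of them lower (Cldn34c1, Cldn4, Cldn6 and Cldn7), in a fit that called 10.9% of all genes lower in place of 6.61%.

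Cldn34c1, on the X chromosome, had 2.77, 3.34, 3.11 and 4.12 CPM in controls and 2.40, 2.56, 2.18 and 1.98 CPM in mutants. Every mutant lay below every control, and the log2 fold change was -0.55 (SE 0.17, adjusted p = 0.0584). The genes of the Cldn34 group are close copies, so how reads were shared among them is uncertain. Cldn12, which lacks the usual PDZ-binding end of claudins, had 35.7, 34.5, 36.5 and 35.3 CPM in controls and 35.0, 40.0, 43.7 and 40.4 CPM in mutants (0.16, SE 0.08, adjusted p = 0.154). K14J28, K14J29 and K14J30 lay above every control, and without K14J26 the fold change was 0.22 (adjusted p = 0.0362). Cldn5, the main claudin of endothelium, had 10.2, 7.83, 11.7 and 9.66 CPM in controls and 12.2, 8.09, 7.73 and 7.02 CPM in mutants (-0.17, SE 0.19, adjusted p = 0.547).

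The other tested claudins did not pass the test. Cldn10, of cation- and anion-selective pores, ranged from 8.21 to 11.5 CPM in controls and was lowest in K14J28 with 5.99 CPM (-0.24, adjusted p = 0.381), and Cldn11, of myelin and Sertoli cells, from 2.70 to 4.87 CPM and from 2.29 to 4.30 CPM (-0.16, adjusted p = 0.70). Cldn15, a cation pore of the gut, ranged from 0.405 to 0.720 CPM and from 0.208 to 0.481 CPM (-0.76, SE 0.35, adjusted p = 0.155). Cldn13 ranged from 0.0554 to 1.24 CPM and from 0.192 to 0.898 CPM (-0.17, SE 0.70, adjusted p = 0.883), and the pore-forming Cldn2 from 0.111 to 0.473 CPM and from 0.0665 to 0.693 CPM (-0.07, SE 0.66, adjusted p = 0.952). The standard errors of Cldn13 and Cldn2 were the largest of the tested members after Cldn20.

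The 27 untested members were at or near the floor. No count in any embryo was found for 11 of them: Cldn18, Cldn24, Cldn34a, Cldn34b1, Cldn34b3, Cldn34b4, Cldn34c2, Cldn34c3, Cldn34c4, Gjb1 and Gjd2. Another 5 (Cldn14, Cldn34d, Cldn34b2 and Gja10 among them) had at most 1 count, and Cldn16 and Gjd4 at most 2. Cldn22 had at most 4 counts, Cldn9 and Gjd3 at most 5, Cldn3 at most 10 and Gjb5 at most 11. The highest were Cldn19 with 15 and Cldn23 with 20 counts in 1 embryo. Cldn3 and Cldn9, neighbours of Cldn4 and Cldn6 on their chromosomes, were thus hardly counted in libraries in which Cldn4 and Cldn6 were. An absence of counts limits these genes to under 3 counts, at most 0.166 CPM, and covers counting error only.

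The mutants did not all differ from the controls to the same extent. Among the 32 tested members, K14J26 was the mutant farthest from the control mean in 14 and K14J29 in 9, with K14J30 in 5 and K14J28 in 4. K14J28 was the nearest in 14, K14J26 in 8, K14J30 in 7 and K14J29 in 3. Over all genes tested, K14J26 was farthest in 50.5% and K14J28 nearest in 36.7%. The standard deviation was larger among mutants than among controls in 25 of the 32 members (78.1%), against 73.6% of all genes. Cldn20, Gja3, Tjp1 and Cldn1 had their highest value in K14J26, the embryo with the highest enamel score. Cldn7, Cldn4 and Cgn had their highest mutant value in K14J28, the mutant with the lowest enamel score and with most keratinizing marker RNA (Krt4 252 CPM and Krt13 397 CPM, against at most 33.9 and 89.7 CPM elsewhere). Of that marker list, 11 of 13 genes were tested, 1 was called (higher), and none was at 0 in every embryo. Markers of dental and oral epithelium summed to 5830 to 6670 CPM in controls and 9330, 6740, 8110 and 7440 CPM in mutants, with Krt14 called higher (0.96, adjusted p = 0.0217), Krt18 called lower (-0.76, adjusted p = 0.00528) and none of the 12 at 0. Of these 12 epithelial markers, 6 fold changes were above 0 and 6 below, with a median of -0.04. The part of these marker differences in the values of the members was not tested.

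**Figure D4:**
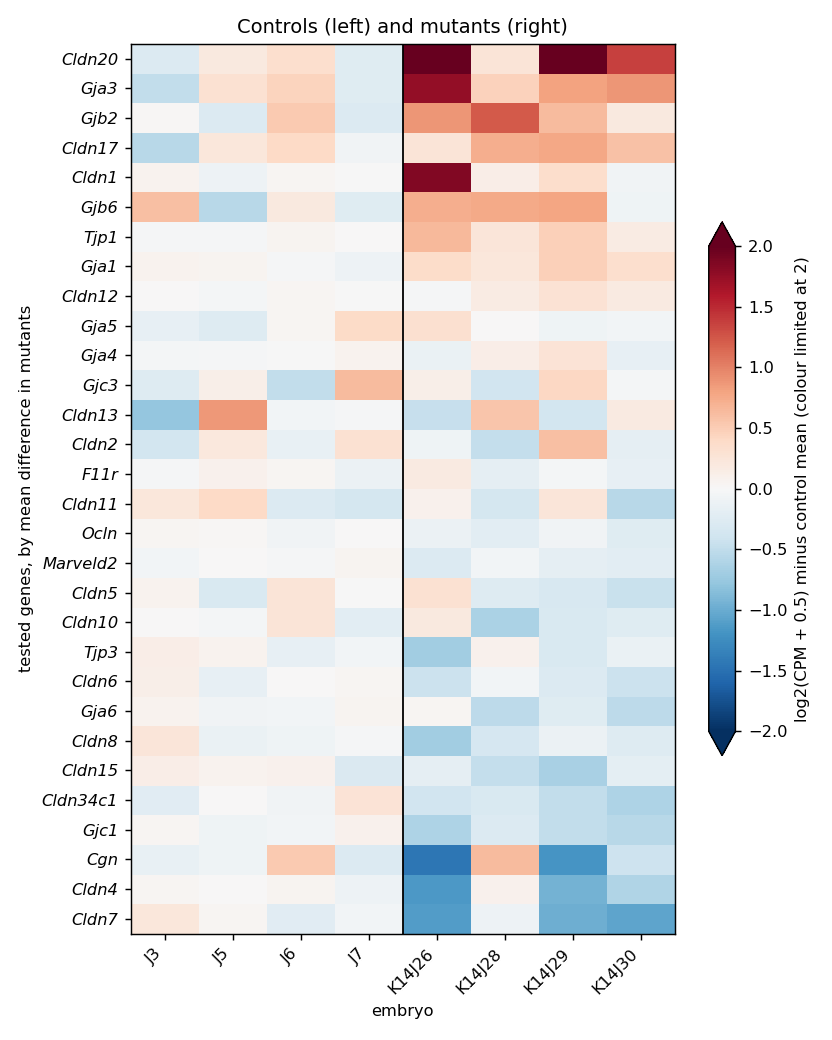
Difference of 30 of the 32 tested genes from the control mean, log2(CPM + 0.5), by embryo, with controls left of the line and mutants right; red is higher, blue lower, and colours end at 2. Among the highest differences at the top, K14J26 is darkest for Gja3 and Cldn1, Cldn20 is past the end of the scale in K14J26 and K14J29, and at the bottom (Cldn7, Cldn4 and Cgn) K14J28 is pale or red.

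Other genes of the same junctions were described from lists chosen with earlier results known. Of 38 further tight junction and polarity genes, 37 were tested, 7 were called higher and 3 lower (9.52% and 6.61% of all genes), with a median of 0.03. Ildr2, an angulin of tricellular junctions, had 11.9, 21.3, 36.9 and 13.4 CPM in controls and 309, 41.6, 121 and 71.6 CPM in mutants (2.70, SE 0.62, adjusted p = 0.0245). Like Cldn20 it was highest in K14J26, but its groups did not overlap. Prkcz, an atypical protein kinase C of the apical polarity complex, rose by 1.11 (SE 0.23, adjusted p = 0.0175), with 23.6 CPM in K14J26 and at most 9.65 CPM in controls. Jam2 (JAM-B) rose by 0.90 (SE 0.24, adjusted p = 0.0376). Amotl2, an angiomotin that binds actin and YAP at junctions, fell from 67.7 to 82.7 CPM to 43.0 to 46.5 CPM (-0.76, SE 0.08, adjusted p = 0.00485), with little spread among mutants. With each embryo left out in turn, 1 to 9 genes of this list were called higher, fewest without J3, J7 or K14J29, and 2 to 5 lower. With the enamel score as a covariate 0 were called higher (3 at an unadjusted p under 0.05) and with the skeletal muscle score 0 (7 at an unadjusted p under 0.05).

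Among 5 other channel genes and gap junction partners, 4 were tested and Cnst (consortin), which binds connexins on their way to the membrane, was called higher (0.46, SE 0.14, adjusted p = 0.0497). It was called in 2 of the 8 fits that left out an embryo and by DESeq2, and under none of the other scalings or covariates tried (RLE, upper quartile, library size or TMM without the 20 most abundant genes, each with 1 at an unadjusted p under 0.05). With no count filter, and with the 50-count filter, 1 gene of this list was also called higher. The pannexins Panx1 (-0.09), Panx2 (-0.81) and Panx3 (-0.14) were not called. Of 13 adherens junction plaque genes, Nectin2 was called lower (-0.37, SE 0.09, adjusted p = 0.0295; 3 of the list by DESeq2), and none higher (1 at an unadjusted p under 0.05 and 1 by DESeq2), with a median of -0.06. With an embryo left out, 0 to 2 of these were called lower, and 0 without J3, J5, J7, K14J29 or K14J30. As covariates, the enamel, epithelial and skeletal muscle scores each left 0 called lower (2, 3 and 2 at an unadjusted p under 0.05). Of 16 transcription factors that act on epithelial junction genes, 4 were called lower (6.61% of all genes): Snai2 (-0.54, adjusted p = 0.0268), Snai1 (-0.45, adjusted p = 0.017), Zeb1 (-0.40, adjusted p = 0.0421) and Twist1 (-0.33, adjusted p = 0.0364). All 4 are known as repressors of epithelial genes that mesenchymal cells express, and the groups did not overlap for any of them. Zeb2, also on the list, was not called (0.02, adjusted p = 0.914), and its groups overlapped. Dental mesenchyme markers summed to 3640 to 4460 CPM in controls and 3250 to 3650 CPM in mutants, with 4 of 8 called lower, 1 called higher and none at 0. Twist1 is on this marker list too and is 1 of those called lower. The part of these markers in the values of the transcription factors was not tested. None of the 16 was called higher by edgeR (1 at an unadjusted p under 0.05) or by DESeq2, and the median was -0.19. The number called lower was 0 without J3, J7 or K14J29 and 4 without K14J26 or K14J28. It was also 0 with the enamel score (3 at an unadjusted p under 0.05) and with the skeletal muscle score (4 at an unadjusted p under 0.05).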

How the data were processed

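RNA from lower molars of 8 mouse embryos at E18.5 was sequenced from poly(A) libraries whose kit does not mark strand. The authors trimmed the reads, mapped them to GRCm38 with STAR and deposited, for each embryo, raw counts of reads per Ensembl gene, without normalization. The methods of the study name GenomicRanges as the counter, and the submitters' processing notes name featureCounts. How reads with several matches were treated is not given in the sources used here.

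Symbols, gene types and exon lengths came from GENCODE vM21, which holds 42548 of the 43629 identifiers. Of 61 symbols that fitted the rule, 2 were pseudogenes and were left out. The members and all gene lists were chosen with earlier results of these data known. Genes reaching 10 counts in 2 or more of the 4 embryos of either group (17129) were scaled by TMM and tested with edgeR 4.0.16 (R 4.3.3), quasi-likelihood test, without covariates, with Benjamini-Hochberg adjustment. CPM use TMM-scaled library sizes. The looser rule takes its thresholds from the methods of the study, with the fold threshold read here on the log2 scale. Standard errors were obtained by dividing the size of the log2 fold change by the root of the F statistic. Promoter windows came from RefSeq (GRCm38.p6). The procedure was tested on simulated data.

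All 59 members are counted, and some are not reported here by name. Of the others, those with an adjusted p under 0.05, past the looser rule, among the 10 highest per kb, or tested and within 100000 bases of another member have values per embryo, and up to 4 called genes are named from each further list. Marker lists of cell types are given beside members. The alternatives were other scalings (RLE, upper quartile, library size, TMM without the 20 most abundant genes), DESeq2 1.42.0, no filter or 50 counts, covariates (enamel, epithelial and skeletal muscle scores, Xist), and leaving out each embryo. Precision is limited by totals of 17327224 to 29792467 counts per embryo and by 4 embryos per group.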

Additional observations from a re-analysis of the deposited data

Results flagged for a closer look

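In 3 of the 66 groups of 4 values checked, 1 embryo lay far from the others, its gap to the nearest value taking more of the group's range than Dixon's limit at 4 values. Chance does this in about 1 in 20 groups. The gap of K14J26 in Cldn1 was 0.879 of the mutant range (421 CPM, with 110 to 148 CPM in the other mutants). For Cldn7, K14J28 (0.998 CPM) stood above the other mutants (0.240 to 0.312 CPM) with a gap of 0.906. For Gjb6, K14J30 (3.10 CPM) stood below the other mutants (5.82 to 6.13 CPM) with a gap of 0.895.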

How the results depend on the processing

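The 4 members called higher became 0 with the enamel score as a covariate (edgeR, 3 at an unadjusted p under 0.05), 2 with the epithelial score, 6 by DESeq2, 0 with the skeletal muscle score (6 at an unadjusted p under 0.05) and 1 to 5 with an embryo left out. The 1 called lower became 3 by upper-quartile scaling, 2 by TMM without the 20 most abundant genes, 3 by DESeq2, 3 with the 50-count filter, 3 with Xist as a covariate, 0 with the enamel score (5 at an unadjusted p under 0.05), 0 with the muscle score (3 at an unadjusted p under 0.05), and 1 to 6 with an embryo left out. By the looser rule, the 5 higher became 0 with the enamel score, and the 4 lower became 7 by library size, 2 with the muscle score and 2 to 6 with an embryo left out. The cause was not tested. With the enamel score 185 genes in all were called higher and 113 lower, in place of 1631 and 1133. With the muscle score 39 were called in each direction, and with an embryo left out 250 to 2479 higher and 170 to 1843 lower.

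Fold changes that turned, or that rounded to 0.00, were those of Cldn1 (-0.48), Cldn13 (0.57), Cldn20 (-0.44), Cldn4 (0.03), Gja5 (-0.10), Cgn (0.58) and Tjp3 (0.32) with the enamel score. With the epithelial score they were Cldn13 (0.19), Cldn2 (0.34) and Gjc3 (0.38), with the muscle score Cldn2 (0.11) and Gjc3 (0.10), and with Xist Cldn10 (0.03), Cldn5 (0.00), Gja4 (-0.18) and F11r (0.03). Upper-quartile scaling gave Gja4 0.00 and Gja5 -0.01, and library size gave Gja4 -0.05 and Gja5 -0.08. With an embryo left out, Cldn11 ran from -0.32 to 0.00, Cldn13 from -0.69 to 0.61, Cldn2 from -0.96 to 0.28, Gja4 from -0.05 to 0.12, Gja5 from -0.08 to 0.19 and Gjc3 from -0.40 to 0.47. Gjc1 remained called with every embryo left out. Under library size scaling the median of all genes moved by -0.10, the largest move among the scalings. No paired analysis was run, because the groups share no replicate numbers and the sample labels name no litter.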
